A study of Bos taurus with 17 samples.

Results

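The genes described here are 10 feedback regulators of MAP kinase signalling, measured in bovine cumulus cells. They are the Tribbles pseudokinases TRIB1, TRIB2 and TRIB3, the dual-specificity phosphatases DUSP1, DUSP4, DUSP5 and DUSP6, and the Sprouty proteins SPRY1, SPRY2 and SPRY4. They were chosen by name, with earlier results of these data known, and were represented by 12 of the 21475 non-control probes of the array. For 8 of these probes, of 8 genes, the array's design gave a locus number and a description that named the gene. Both probes of TRIB2, listed under the older symbol TRB2, were added through the RefSeq record or the description, and the probe of DUSP4 and 1 of the 2 probes of SPRY4, listed under an expressed sequence tag, through the description. The probes were not matched to a genome here.

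Cumulus cells are the somatic cells that enclose the oocyte, and they were compared at 3 stages on 17 Agilent 1-colour arrays, 1 sample each. NC1 cells came from 6 prepubertal calves aged 3 to 6 months, from follicles of 3 to 6 mm that held prophase I oocytes of no or poor developmental competence. C1 cells came from 6 adult cows and surrounded competent prophase I oocytes, and both NC1 and C1 complexes were aspirated after slaughter and had a compact cumulus. C2 cells came from 5 cycling, non-lactating Holstein cows 3 to 5 years old, with an expanded cumulus around metaphase II oocytes, collected by ovum pick up from follicles over 8 mm at 60 h after prostaglandin F2α, after progestagen implants and superovulation with an FSH/LH preparation. Stage cannot be told apart from animal age when NC1 is set against C1. Nor can it be told apart from follicle size, hormone treatment and mode of collection when C1 is set against C2. When NC1 is set against C2, stage cannot be told apart from any of these or from animal age. In such bulk samples a smaller number of cells of a type and less RNA per cell cannot be told apart either.

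In the ovulatory follicle, EGF-like ligands released after the gonadotropin surge act on the EGF receptor of cumulus cells, and the ERK branch of the MAP kinase pathway is needed for cumulus expansion. Many genes that the pathway switches on restrain it in turn: DUSP proteins remove phosphate from the kinases, and Sprouty proteins act between the receptor and RAF. Tribbles proteins are kinase-like scaffolds that bind MAP kinase kinases, AKT or C/EBP factors and can bring their targets to the COP1 ubiquitin ligase. DUSP1, DUSP4 and DUSP5 are nuclear phosphatases and DUSP6 is a cytoplasmic one with a preference for ERK.

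The array probes were of 60 bases. The 5′ ends of 7 of them, of 6 members described below, are given so that the measured transcripts can be identified, with the PCR primers that the study used for TRIB1 (all bases in lower case, 5′ to 3′).
TRIB1 A_73_100489, bases 1 to 30: gaatgatcattggcaatattaccttgacag
TRIB1 forward primer: tggcacaaaaacaggcagtcacct
TRIB1 reverse primer: cgaagccccagcaaacccaga
TRIB2 A_73_116099, bases 1 to 30: tgacatgcatggtgggaatctatggcctct
TRIB2 A_73_110493, bases 1 to 30: agttcttccagggaacacgtatcgcctggc
TRIB3 A_73_111514, bases 1 to 30: tatgccatgagtgtgtattttttatcttgt
DUSP6 A_73_116242, bases 1 to 30: gataggcgacatgcatatgattgtgaagga
SPRY2 A_73_114794, bases 1 to 30: aggcatcttacagattttgccccttttatg
SPRY4 A_73_114526, bases 1 to 30: tttctgacgctcagggtcaagtcccagcgc
Over the 11 member probes whose sequence was at hand, the longest run of bases that any 2 shared on either strand was 10 of 60, including the 2 probes of TRIB2.

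Levels are given as the log2 scaled signal, which is log2 of the background-corrected signal minus the median of the array, so that 0 is the median probe of the array and 1 unit is a factor of 2. Levels of different probes are not comparable with each other. The median signal of an array was 64.2 to 208 intensity units, and 63.2% to 79.5% of the probes of an array were well above background, meaning that all spots of the probe were, with no saturated spot. All 9 cumulus and granulosa markers were on the array and were well above background on every NC1 and C1 array, and 8 of them on every C2 array. The C2 arrays fell into 3 kinds: replicates 1 and 5 lay 0.444 apart (SD of the log2 difference over valid probes), replicates 3 and 4 lay 0.512 apart, and all other C2 pairs lay 1.05 to 1.27 apart, against 0.431 to 0.756 for pairs of NC1 or of C1 arrays. Whether the close C2 samples came from separate animals was not tested.

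A probe was tested when in each stage 80% or more of the arrays had it present, which means brighter than background, uniform and unsaturated. This left 13865 probes, 10 of them of 9 members, and a gene with 2 tested probes is counted by the one with the higher mean signal. DUSP5 and the expressed sequence tag probe of SPRY4 did not pass. At C2, 4 of the 9 members were higher than at C1 (TRIB1, TRIB3, DUSP4 and SPRY2) and 1 was lower (TRIB2), past an adjusted p of 0.01 in limma. Over all tested probes 28.1% passed in either direction, 15.3% higher and 12.8% lower. The median difference of the 9 members was 0.49, against 0.02 for all tested probes. Against NC1, 3 of the 9 were higher at C2 (TRIB1, TRIB3 and SPRY2) and 2 lower (TRIB2 and DUSP6), where 28.1% of all probes passed, 15.5% higher and 12.6% lower. Both comparisons use the same C2 arrays. Between C1 and NC1, none of the 9 members passed in limma, where 0.0577% of all probes passed, 0.00721% higher and 0.0505% lower. The C1 and NC1 arrays overlapped for all 9, and did not for 2.1% of all probes. Over the 3 stages together, 6 of the 9 passed, against 28.6% of all probes.

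**Figure D1:**
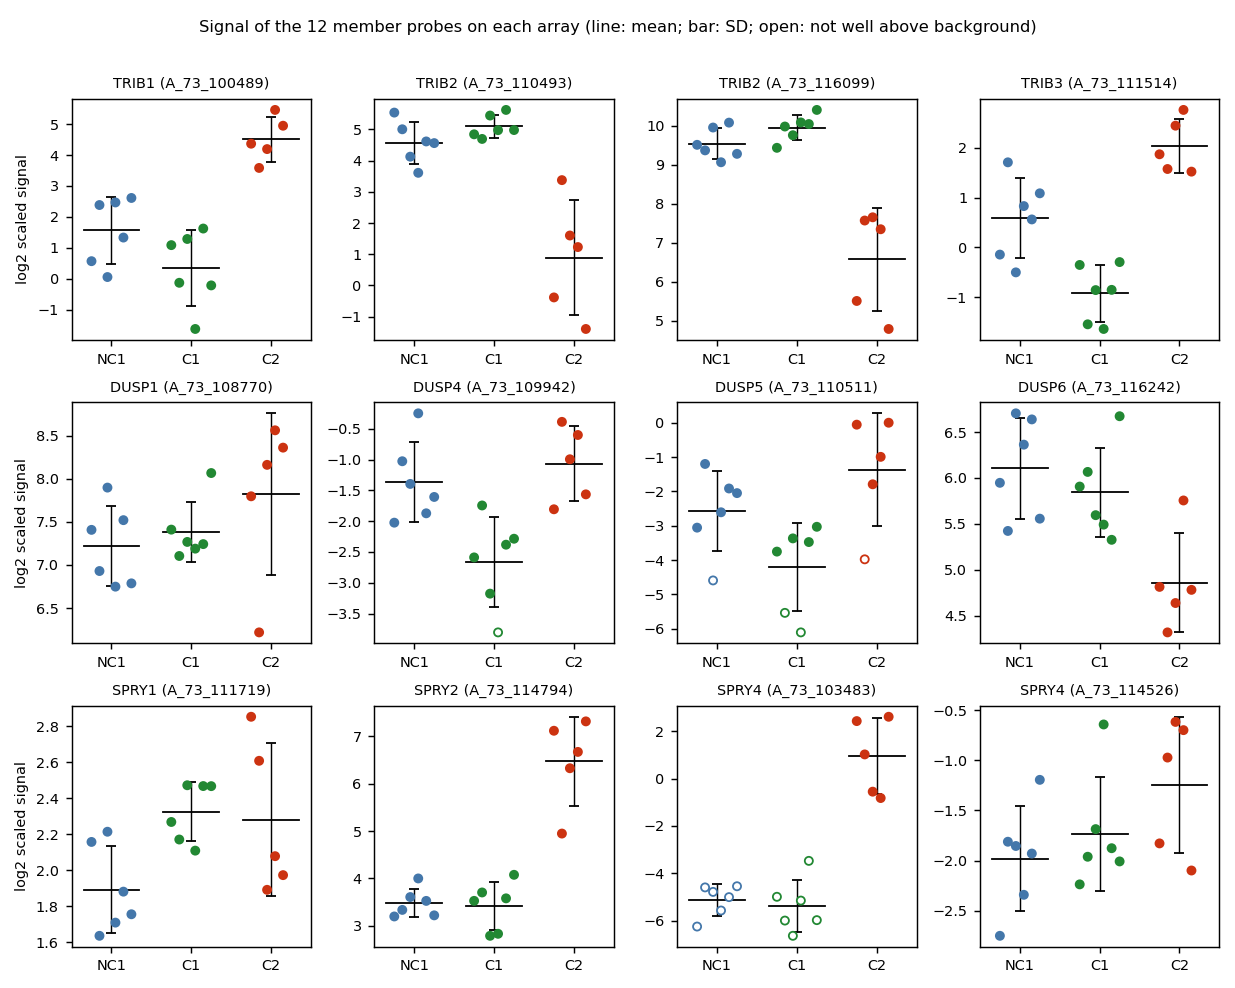
Log2 scaled signal (vertical axis) of each of the 12 member probes on each array of NC1 (6 arrays), C1 (6) and C2 (5). Points are arrays, lines are stage means, bars are SD between arrays, and open points are arrays where the probe was not well above background; the C2 arrays sit above all others for TRIB1, SPRY2 and SPRY4 A_73_103483 and below all others for both TRIB2 probes.

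Among the Tribbles genes, TRIB1 and TRIB3 were higher at C2 and TRIB2 lower. TRIB1, a scaffold for degradation of C/EBPα, measured 4.37, 3.58, 4.19, 5.46 and 4.95 on C2 replicates 1 to 5 on the log2 scale. On the C1 arrays it ranged from -1.63 to 1.62 with a median of 0.48, and on the NC1 arrays from 0.05 to 2.61 with a median of 1.86. Every C2 array was above every C1 and NC1 array, a separation seen for 21.6% of all tested probes against C1 and 20.9% against NC1. The difference from C1 was 4.17 ± 0.57 (SE), 18.0-fold (adjusted p = 1.31e-05), and that from NC1 was 2.94 ± 0.57, 7.68-fold (adjusted p = 0.00047). In an exact 2-sided permutation test both gave p = 0.00433, the smallest that 5 against 6 arrays allow. Of the 6 C1 arrays, 3 lay below all NC1 arrays, and the difference of -1.23 between C1 and NC1 did not pass (adjusted p = 0.45). The study also measured TRIB1 by PCR, in charts whose text does not name the species. In the series with array values nearest to those here, PCR also gave the highest level at C2. There PCR put C1 above NC1, opposite to the direction on the array.

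TRIB3 is a stress-responsive family member that binds AKT. It measured 1.87, 1.57, 2.44, 2.76 and 1.52 on C2 replicates 1 to 5, between -1.64 and -0.29 (median -0.86) at C1 and between -0.50 and 1.71 (median 0.70) at NC1. All C2 arrays lay above the C1 arrays, by 2.96 ± 0.37 (SE; adjusted p = 4.85e-06), or 7.76-fold. Against NC1 the ranges overlapped, since 3 of the 5 C2 arrays lay above all NC1 arrays, and the difference was 1.44 ± 0.37 (adjusted p = 0.00443, exact permutation p = 0.013). This last call was lost with slide as a block (1.43, adjusted p = 0.0134), with the close C2 replicates averaged (1.37, adjusted p = 0.0219), with scaling by the 75th percentile (1.30, adjusted p = 0.0149), with array weights (1.12, adjusted p = 0.0504) and with only 2 stages in the fit (adjusted p = 0.0115). It was also lost without C2 replicate 3 (1.34), C2 replicate 4 (1.26), NC1 replicate 1 (1.30) or NC1 replicate 3 (1.23). TRIB3 was also the member with the smallest p between C1 and NC1, where 4 of the 6 C1 arrays lay below all NC1 arrays. That difference of -1.51 did not pass (adjusted p = 0.0791, exact permutation p = 0.00649).

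TRIB2, which can also direct C/EBPα to degradation, went the other way, on both of its probes. Probe A_73_116099 measured 5.51, 7.57, 7.66, 7.35 and 4.79 on C2 replicates 1 to 5, against 9.44 to 10.41 (median 10.02) at C1 and 9.07 to 10.09 (median 9.44) at NC1. All C2 arrays were below all others, and replicates 1 and 5 were the lowest. The difference was -3.38 ± 0.43 (SE) from C1, a 10.4-fold lower level (adjusted p = 5.5e-06), and -2.97 ± 0.43 from NC1 (adjusted p = 2.35e-05). Probe A_73_110493 measured -0.38, 3.37, 1.60, 1.23 and -1.39 on the same arrays, against 4.69 to 5.62 at C1 and 3.61 to 5.54 at NC1. Its C2 arrays also lay below all others, again with replicates 1 and 5 lowest, and its difference from C1 was -4.21 ± 0.59 (adjusted p = 1.69e-05). Between C1 and NC1 TRIB2 differed by 0.41 on the brighter probe (adjusted p = 0.809).

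The 4 phosphatases did not share a direction. DUSP1, an early-response nuclear phosphatase, was at 7.80, 6.22, 8.16, 8.56 and 8.36 on C2 replicates 1 to 5, with 3 of the 5 arrays above all C1 arrays and replicate 2 below all of them. Its difference of 0.44 ± 0.34 (SE) from C1 did not pass (adjusted p = 0.329), nor did that of 0.61 from NC1 (adjusted p = 0.174). Without C2 replicate 2 the difference from NC1 was 1.01 and passed (adjusted p = 0.00382), so that this array decided the call. DUSP6, the ERK phosphatase of the cytoplasm, was at 4.81, 4.32, 4.64, 5.76 and 4.78 at C2, between 5.33 and 6.67 (median 5.75) at C1 and between 5.42 and 6.70 (median 6.16) at NC1. All C2 arrays but replicate 4 lay below the other stages. DUSP6 was lower at C2 than at NC1, at -1.25 ± 0.30 (SE; adjusted p = 0.00299), a call lost with normexp background correction at -0.99 (adjusted p = 0.0107). Its difference of -0.98 ± 0.30 from C1 did not pass (adjusted p = 0.0142), but passed without C2 replicate 4, at -1.21 (adjusted p = 0.00331). It also passed with quantile normalization at -1.17 (adjusted p = 0.000237), with scaling by the 75th percentile at -1.11 (adjusted p = 0.000604) and with normexp at -1.07 (adjusted p = 0.0071).

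DUSP4 and DUSP5 were dim. DUSP4, a nuclear phosphatase, measured -1.81, -0.38, -0.99, -0.60 and -1.56 on C2 replicates 1 to 5, between -3.81 and -1.74 (median -2.48) at C1 and between -2.02 and -0.25 (median -1.50) at NC1. At C1 it was well above background on 5 of the 6 arrays. The C2 level was 1.59 ± 0.37 (SE) above C1 (adjusted p = 0.00225), with 4 of the 5 C2 arrays above all C1 arrays, and 0.29 above NC1 (adjusted p = 0.568). With normexp the difference from C1 was 0.69 and did not pass (adjusted p = 0.0111), and with array weights it was 1.44 (adjusted p = 0.0185). DUSP5, a nuclear phosphatase with a preference for ERK, measured -0.05, -3.98, -1.79, -0.99 and 0.00 on the C2 arrays. It was well above background on 4 of the 5 C2, 4 of the 6 C1 and 5 of the 6 NC1 arrays. Since each stage held at least 1 array where it was not well above background, no fold is given. In a fit over the 15256 probes present in any 2 stages the difference of 2.85 from C1 passed (adjusted p = 0.00475) and that of 1.21 from NC1 did not (adjusted p = 0.205). DUSP5 entered that fit through its presence at NC1 and C2, and not at C1, so this call is no support of its own. The difference also includes C1 values not well above background, so its size is uncertain. In a fit over all probes the difference from C1 had an adjusted p of 0.0062. There it no longer passed with the close C2 replicates averaged (2.41, adjusted p = 0.0497), with scaling by the 75th percentile (adjusted p = 0.0105), or without C1 replicate 2 (2.58), C1 replicate 4 (2.47), C2 replicate 1 (2.52), C2 replicate 3 (2.96), C2 replicate 4 (2.76) or C2 replicate 5 (2.51).

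The Sprouty genes differed among themselves. SPRY2, an inhibitor of receptor-driven RAS signalling, measured 7.12, 4.95, 6.33, 6.67 and 7.32 on C2 replicates 1 to 5, against 2.79 to 4.07 (median 3.55) at C1 and 3.19 to 4.00 (median 3.43) at NC1. The C2 arrays lay above all others, with replicate 2 the lowest of them, while C1 and NC1 overlapped. The difference was 3.06 ± 0.35 (SE) from C1, 8.34-fold (adjusted p = 1.54e-06), and 3.00 ± 0.35 from NC1 (adjusted p = 2.09e-06). SPRY1, an inhibitor of the same kind, stayed within a narrow span. It measured 2.85, 2.61, 1.89, 2.08 and 1.97 at C2, 2.11 to 2.47 at C1 and 1.63 to 2.21 at NC1, with 2 C2 arrays above and 3 below all C1 arrays. No comparison of SPRY1 passed (adjusted p = 0.867 for C2 against C1, 0.115 for C2 against NC1 and 0.421 for C1 against NC1).

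The 2 probes of SPRY4, another inhibitor of RAS activation, disagreed. The expressed sequence tag probe A_73_103483 measured 2.42, 1.02, -0.55, -0.82 and 2.60 on C2 replicates 1 to 5 and was well above background on all 5, whereas it was well above background on 0 of 6 C1 and 0 of 6 NC1 arrays. Replicates 1 and 5 were again the extreme pair, here the highest. C2 was at least 32-fold above C1 and at least 15.4-fold above NC1, against measured means of 0.93 at C2, -5.36 at C1 and -5.12 at NC1. In a fit over all 21475 probes the adjusted p was 5.17e-07 for C2 against C1 and 8.77e-07 for C2 against NC1. Probe A_73_114526 was above background at every stage and measured -1.83, -0.97, -0.62, -0.70 and -2.10 on the same C2 arrays, against -2.24 to -0.64 at C1 and -2.75 to -1.19 at NC1. Its ranges overlapped, and its differences of 0.49 from C1 (adjusted p = 0.253) and 0.74 from NC1 (adjusted p = 0.0856) did not pass. Which of the 2 probes reads the SPRY4 transcript was not tested, and replicates 1 and 5 were the lowest C2 arrays on this probe and the highest on the other.

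**Figure D2:**
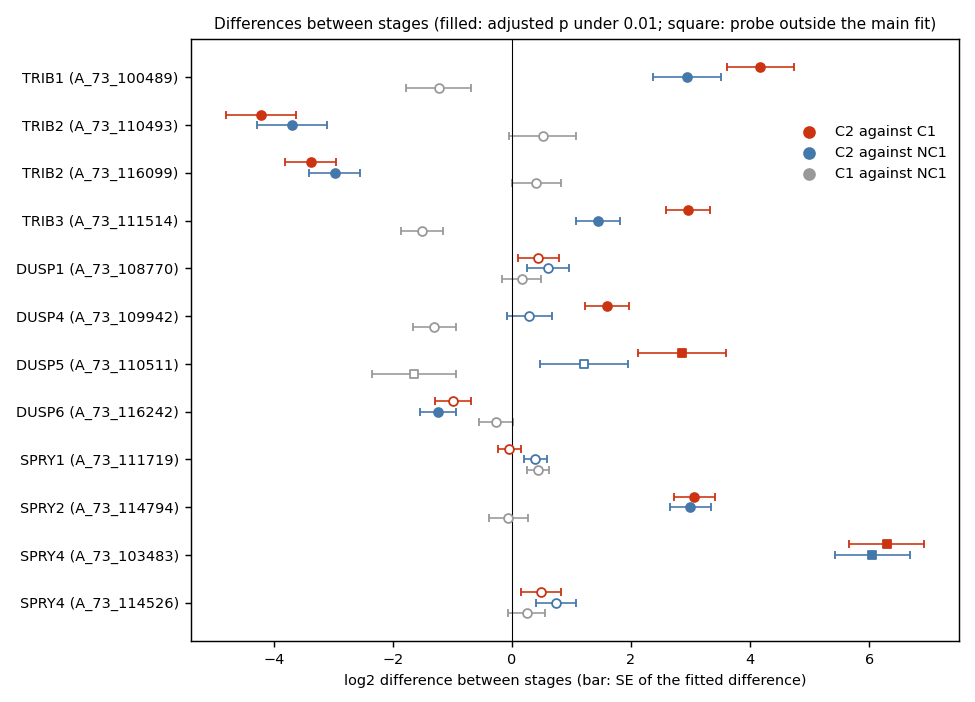
Log2 difference between stages (horizontal axis) for each member probe (vertical axis) in the 3 comparisons, with bars for the SE of the fitted difference. Filled points passed an adjusted p of 0.01 and squares are probes outside the main test, with DUSP5 fitted over 15256 probes and SPRY4 A_73_103483 over 21475; the 2 TRIB2 probes lie left of 0 and TRIB1, TRIB3 and SPRY2 right of it in both comparisons of C2, while no point of C1 against NC1 is filled.

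The 17 arrays lay on 6 slides, each with 1 NC1 and 1 C1 array, and 5 of them also with a C2 array, and were scanned on 2 days. C2 replicates 3 and 4, a close pair, were the only C2 arrays of day 2, and replicates 1, 2 and 5 were scanned on day 1. For C2, scan day thus cannot be told apart from the pair of replicates 3 and 4, whereas replicate 2 shared its day with replicates 1 and 5. The differences called between C2 and C1 had the same direction on both days: 3.47 and 4.98 for TRIB1, -4.01 and -2.44 for TRIB2 A_73_116099, 2.15 and 3.95 for TRIB3, 1.17 and 2.11 for DUSP4, and 2.74 and 3.39 for SPRY2. With slide as a block all 5 calls stood, with adjusted p between 1.26e-05 for TRIB1 and 0.00332 for DUSP4. The difference of DUSP1 from C1 turned sign between the days, at -0.11 on day 1 and 1.18 on day 2, and C2 replicate 2 was scanned on day 1. That of SPRY1 from C1 also turned sign, at 0.08 and -0.27.

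Within C2, the spread of several members followed the 3 kinds of arrays. For TRIB2, SPRY4 and DUSP4, replicates 1 and 5 lay on one side and replicates 3 and 4 on the other, and replicate 2 was the lowest C2 array for TRIB1, DUSP1, DUSP6 and SPRY2. The SD between C2 arrays was 1.33 for TRIB2 A_73_116099 and 0.94 for SPRY2, against 0.33 and 0.51 between C1 arrays. For TRIB1 it was smaller at C2 than at C1 (0.72 against 1.22), as for DUSP4 (0.61 against 0.73) and TRIB3 (0.55 against 0.57). With each close pair averaged to 1 sample, TRIB1, TRIB2, TRIB3, DUSP4 and SPRY2 were still called between C2 and C1, with DUSP4 the least clear (1.71, adjusted p = 0.00605).

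**Figure D3:**
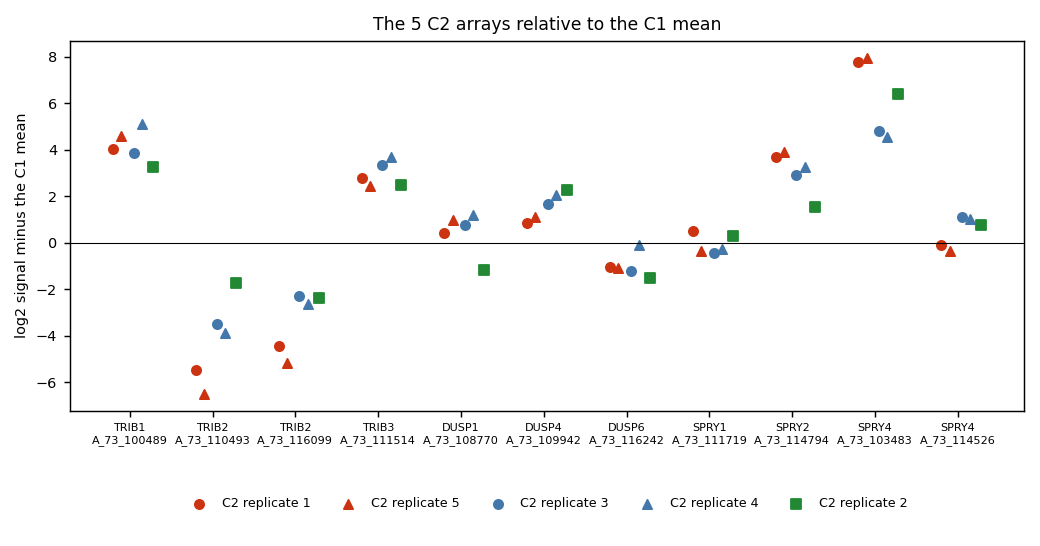
Log2 signal of each of the 5 C2 arrays minus the C1 mean (vertical axis) for 11 member probes (horizontal axis), with close arrays in the same colour: replicates 1 and 5 in red, 3 and 4 in blue, and 2 in green. Red points are the lowest for both TRIB2 probes and the highest for SPRY4 A_73_103483, and the green point is the lowest for TRIB1, DUSP1 and SPRY2.

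Of the 9 cumulus and granulosa markers, 4 were called lower at C2 than at C1: FSHR (-3.55), CYP19A1 (-3.45), FOXL2 (-2.99) and AMH (-2.14). HAS2 (2.46), TNFAIP6 (6.63) and PTX3 (4.98) were called higher, INHA and INHBA did not pass, and the median of the list was -1.49. Markers of other cells moved with the stages as well. The summed linear signal of the 6 leukocyte markers was 3.98 to 21.2 at C2, with C2 replicates 1 and 5 at 15.6 and 21.2, against 3.3 to 4.99 at C1 and 4.66 to 10.9 at NC1. That of the 6 theca and stroma markers was 281 to 606 at C2, 192 to 295 at C1 and 160 to 292 at NC1, and that of the 5 endothelial markers was 2.56 to 11.2, 1.1 to 1.36 and 1.18 to 2.51. The endothelial marker CDH5 was well above background on no array, and the leukocyte marker CD3E on no C1 or NC1 array. Of the 5 tested leukocyte markers, LYZ (1.89) and CD14 (1.22) were called higher at C2 than at C1. CSF1R (1.86), CD68 (1.57) and PTPRC (0.73) did not pass, and the median was 1.57. In the endothelial and the theca and stroma lists, not all markers moved together. In the endothelial list KDR was higher at C2 than at C1 (3.58, adjusted p = 1.69e-05), whereas PECAM1 was at -0.70 and TEK at -0.78, and the median was -0.11. In the theca and stroma list LUM (3.79) and COL1A1 (1.15) were higher, whereas INSL3 was at -0.78, ACTA2 at -0.75 and CYP17A1 at -0.25, and the median was -0.16. The 2 probes of DCN in this list disagreed, at -0.07 (adjusted p = 0.881) on the counted probe and 4.08 (adjusted p = 1.17e-05) on the other. The 10 oocyte markers summed to 54.2 to 128 at NC1, 5.04 to 49.5 at C1 and 3.37 to 7.82 at C2, where BMP15, ZP2, DAZL, DDX4, FIGLA and ZAR1 were well above background on no array. The 2 red blood cell markers on the array summed to at most 0.303 on any array. The part of these cells in the differences of the members was not tested.

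The other genes of the pathway were taken from 8 lists, also chosen with earlier results of these data known. Of their 87 genes, 83 were on the array and 63 had a tested probe. Of these, 21 were higher and 6 lower at C2 than at C1, where 15.3% of all tested probes were higher and 12.8% lower, and 0 passed between C1 and NC1. The counts of the single lists rest on few genes. Those of the JNK and p38 cascade and of the genes that the stress factor ATF4 switches on lie near these shares. Of the 7 other MAP kinase phosphatases, 3 were tested and 2 rose (median difference of the list 2.36). For these 2 the C2 and C1 arrays did not overlap, as was the case for 21.6% of all tested probes. DUSP2, an inducible nuclear phosphatase, rose by 2.36 ± 0.38 (SE; adjusted p = 7.69e-05) and DUSP10, a phosphatase of JNK and p38, by 2.40 ± 0.42 (adjusted p = 0.000188). DUSP7 did not pass (-0.38, adjusted p = 0.278). Of the 12 other inhibitors of receptor and RAS signalling, 5 were tested and 2 rose. These were the Sprouty-related SPRED1, by 0.97, and the ubiquitin ligase CBLB, by 1.65. ERRFI1, which binds and inhibits the EGF receptor, was at -0.92 (adjusted p = 0.0386). The median of this list was 0.22. With quantile normalization ERRFI1 passed, as lower, at -1.10 (adjusted p = 0.00915).

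Upstream of the members, 1 of the 5 tested EGF-like ligands and receptors rose and 3 fell, with a median of -1.22. The ligand HBEGF rose by 1.71 ± 0.35 (adjusted p = 0.000783) and the ligand BTC fell, at -4.57 ± 0.47 (adjusted p = 5.57e-07). The receptors EGFR and ERBB3 also fell, at -1.22 (adjusted p = 0.00323) and -2.41 (adjusted p = 0.00397). The call of EGFR was lost with the close C2 replicates averaged, at -1.08 (adjusted p = 0.0218), and that of ERBB3 without C2 replicate 2, at -1.92 (adjusted p = 0.0115). The ligand AREG did not pass the filter, being well above background on 5 of 5 C2 arrays but on 0 of 6 C1 and 0 of 6 NC1 arrays, and was at least 66.3-fold higher at C2 than at C1 and at least 30.2-fold higher than at NC1. Its measured means were 1.96 at C2, -5.77 at C1 and -4.36 at NC1, with an adjusted p over all probes of 1.79e-06 against C1 and 1.8e-05 against NC1. No probe was named EREG.

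In the cascade from RAS to ERK, 7 of 15 genes rose and 0 fell. The largest were the kinases ARAF (2.56 ± 0.23, adjusted p = 9.61e-08) and MAP2K1 (2.26 ± 0.25, adjusted p = 1.33e-06), the scaffold KSR1 (2.03 ± 0.37, adjusted p = 0.000226) and the GTPase NRAS (1.68 ± 0.22, adjusted p = 8.75e-06). The median difference of the list was 0.64, against 0.02 for all tested probes. The 7 include GRB2, an adaptor between receptors and RAS, whose call was lost with the close C2 replicates averaged (0.77, adjusted p = 0.0582). With scaling by the 75th percentile BRAF also passed, as lower, at -0.67 (adjusted p = 0.0028), and so did the phosphatase PTPN11, as higher, at 0.51 (adjusted p = 0.00632). PTPN11 passed without C2 replicate 2 as well (0.77, adjusted p = 0.00686). In the JNK and p38 cascade 2 of 11 rose, the kinases MAPKAPK3 by 2.19 ± 0.27 (adjusted p = 4.56e-06) and MAP2K3 by 1.52 ± 0.24 (adjusted p = 5.39e-05), with a median of 0.61.

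Downstream, 4 of 10 ERK target factors rose and 1 fell, with a median of -0.06. PHLDA1, an early-response gene, rose by 3.64 ± 0.61 (adjusted p = 0.000108), the ETS factor ELK3 by 2.76 ± 0.37 (adjusted p = 9.53e-06) and the ETS factor ETV4 by 2.03 ± 0.18 (adjusted p = 7.14e-08). The fourth, the ETS factor ELK1, no longer passed with the close C2 replicates averaged (0.87, adjusted p = 0.0234). MYC fell, at -4.78 ± 0.62 (adjusted p = 7.89e-06). Of the partners through which Tribbles proteins act, 2 of 6 rose, CEBPD by 1.09 on 1 of its 2 probes and the ubiquitin ligase RFWD2, also called COP1, by 0.88 (median of the list 0.52). The other probe of CEBPD was at 0.14 (adjusted p = 0.789), and RFWD2 no longer passed with the close C2 replicates averaged (0.83, adjusted p = 0.0241). CEBPB was at 0.35 (adjusted p = 0.596), and the 2 probes of CEBPA disagreed, at -0.65 (adjusted p = 0.358) and 2.11 (adjusted p = 0.000613).

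TRIB3 belongs to the genes that the stress factor ATF4 switches on, and of 8 genes of that kind, 1 rose and 2 fell at C2. Over all tested probes, 15.3% were higher and 12.8% lower than at C1. PSAT1, of serine synthesis, rose by 3.20 ± 0.46 (adjusted p = 2.07e-05), whereas SESN2, a stress-induced inhibitor of mTORC1, was at -2.39 ± 0.30 (adjusted p = 4.63e-06) and CHAC1, which breaks down glutathione, at -1.38 ± 0.26 (adjusted p = 0.000344). A second SESN2 probe was at -1.04 (adjusted p = 0.0104). ATF4 itself was at -0.23 (adjusted p = 0.651). The median of the 8 genes was -0.41.

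**Figure D4:**
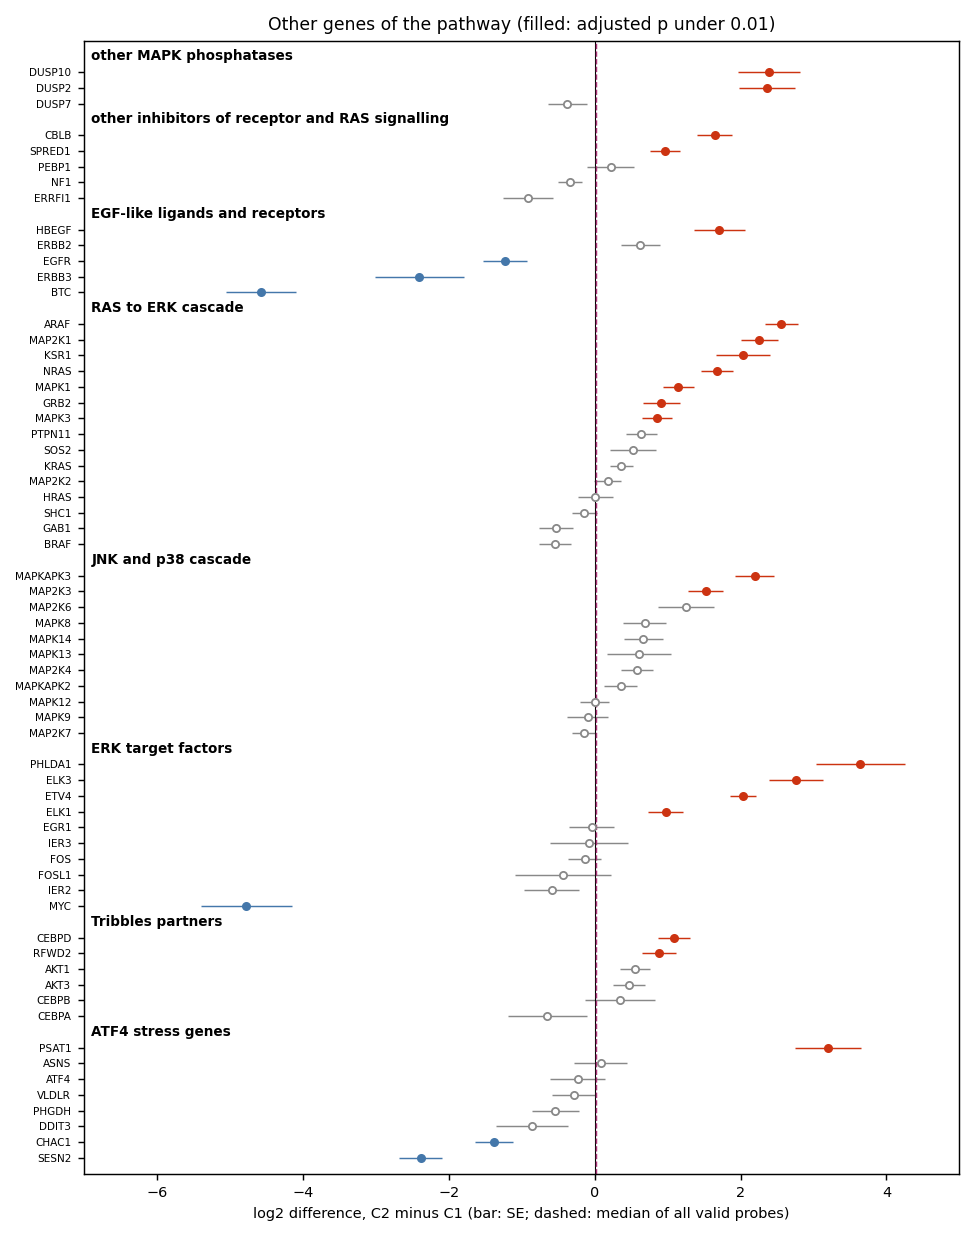
Log2 difference of C2 minus C1 (horizontal axis) with its SE for the 63 tested genes of the 8 lists of other pathway genes, sorted within each list. Filled points passed an adjusted p of 0.01, red for higher and blue for lower at C2, and the dashed line is the median of all tested probes at 0.02; 21 points are red and 6 are blue.

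Likeness of profile was measured as the root-mean-square difference over the 17 arrays between 2 probes, each centred on its own mean, among 11502 other tested probes with a gene symbol. The profiles nearest to TRIB1 were those of RND3 at 0.56, the protease ADAMTS1 at 0.77, and both tested probes of DLC1 at 0.77 and 0.78. The profiles nearest to SPRY2 were those of ARPC1B, an actin-nucleating subunit, at 0.29, SHTN1 at 0.31, the lysosomal enzyme GALC at 0.33 and the calpain inhibitor CAST at 0.33. All 8 probes were higher at C2 than at C1, by 2.75 to 4.23. These are descriptions over arrays that share their stages and carry no test.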

How the data were processed

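The cow arrays were hybridised with Cy3-labelled cRNA of cumulus cells, and arrays of other species were not analysed here. The labels name the tissue as ovarian follicles, and the study's methods describe cumulus cells. The authors deposited linear intensity values per spot from Agilent Feature Extraction 10.5.1.1, background-subtracted and detrended and not scaled between arrays. They also deposited a table of log2 values scaled by the median of each array, which was used as an alternative and for probe sequences. PCR primers came from the study's supplement.

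From the spots, log2 signals were averaged per probe, leaving out non-uniform and outlier spots, and the array's median was subtracted. A probe was present when at least 50% of its spots were well above background, uniform and unsaturated. The 3 stages entered 1 limma 3.58.1 fit (R 4.3.3; lmFit, eBayes), adjusted by Benjamini-Hochberg over the 13865 valid probes, with a threshold of 0.01. The script was tested on simulated data for C2 against C1. There, 35.5% of 200 probes changed by 1 log2 unit passed, and 93.5% of 200 changed by 3 units. A difference near 1 that did not pass is thus not shown to be absent. Exact permutation tests used scipy 1.17.1. Bounds replace arrays not well above background by the lowest signal well above it on that array, and the number of arrays limits the precision. Samples of a stage were taken as separate animals, as the study's methods describe. Gene names came from RefSeq records through accessions or gene IDs, and otherwise from the array files. No genome build is named for the probes, and none is used here.

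The members and lists were chosen with earlier results of these data known. The named genes are the members, up to 4 genes past the threshold in C2 against C1 with the largest differences per list, DUSP10, CEBPB, ATF4, EGFR, AREG and EREG, and the 4 nearest profiles to TRIB1 and SPRY2. DUSP7, ERRFI1, GRB2, PTPN11, BRAF, ELK1 and CEBPA were named after their values were seen. Alternatives covered scaling, background correction, filters, blocks, array weights, the fitted samples, the deposited table, the methods' 1-factor test, and each array left out.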

Additional observations from a re-analysis of the deposited data

Results flagged for a closer look

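In 27 groups of arrays, 9 genes by 3 stages, 2 held an array whose gap to the nearest other array was large for the range of its group, and chance gives about 1 in 20. DUSP1 on C1 replicate 6 was at 8.07 on the log2 scale, with the nearest C1 array at 7.41 and a gap of 0.682 of the range. SPRY4 A_73_114526 on C1 replicate 4 was at -0.64, with the nearest C1 array at -1.69 and a gap of 0.654 of the range. Both arrays were well above background for the probe.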

How the results depend on the processing

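The number of members called stayed at 4 to 6 for C2 against C1 and for C2 against NC1 in all alternatives. Between C1 and NC1, 0 members were called except with array weights, which called 2, TRIB3 (-1.61, adjusted p = 0.00421) and DUSP4 (-1.57, adjusted p = 0.00715). For C1 against NC1 the count of all probes called, 8, became 77 with only 2 stages in the fit, 239 with array weights, 25 with no filter on dim probes, 2 with slide as a block and 0 with the replicate number as a block, and 1 to 19 with 1 array left out. The replicate numbers do not pair the samples (r between -0.317 and 0.252 for same-numbered arrays), and the replicate block changed 1 call of a member, DUSP6 in C2 against NC1 (-1.22, adjusted p = 0.0128). The scaling by the 75th percentile moved the median of all probes for C2 against C1 from 0.02 to -0.11 and the split of calls from 2117 higher and 1775 lower to 2114 and 2514, quantile normalization gave 2212 and 2464, and normexp 1633 and 1643. For C2 against NC1 the median moved from 0.11 to -0.04 and the split was 2152 and 1741, then 2083 and 2491, 2151 and 2454, and 2468 and 1200. With scaling by the 75th percentile 1 gene of the RAS to ERK list was lower, and with quantile normalization 1 of the other inhibitors was lower, ERRFI1 (-1.10), against 0 each in the main setting. Among the Tribbles partners 1 gene in place of 2 was higher with the close C2 replicates averaged, an alternative chosen after seeing the data.

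Of the differences of the 10 tested member probes, with 1 array left out, 498 kept direction and side of the threshold, 4 lost and 2 gained a call and 6 turned sign. Under the other settings the numbers were 344, 9, 5 and 5. All that turned sign were uncalled: DUSP4 in C2 against NC1 with array weights (-0.13), DUSP6 (0.0801), SPRY2 (0.2055) and SPRY4 A_73_114526 (-0.0835) in C1 against NC1 with normexp, SPRY1 in C2 against C1 with the close C2 replicates averaged (0.0093), and, with 1 array left out, SPRY1 in C2 against C1 (-0.189 to 0.0522) and SPRY2 in C1 against NC1 (-0.195 to 0.0626). The changes in calls of TRIB3, DUSP1, DUSP4, DUSP5 and DUSP6 are given with their values above. The cause of these changes was not tested. Probes near background, DUSP4, DUSP5 and SPRY4 A_73_103483, have the least certain levels.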
